A study of Caenorhabditis elegans with 16 samples.

Results

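Molting in the nematode Caenorhabditis elegans is driven by a small group of transcription regulators, and the transcripts of 7 of them, nhr-23, nhr-25, lin-42, grh-1, bed-3, blmp-1 and myrf-1, are described here. They were chosen by gene name among the 46904 genes of the deposited tables, and each had a value in all 16 libraries. In worms whose mitochondrial ATP synthase subunit atp-2 was knocked down, all 7 were higher than in controls at 0 hr. At 20 hr 6 of the 7 were still higher, while nhr-23 was lower. Of all genes tested, 43.7% were called higher and 39.6% lower at 0 hr, and 47.7% and 40.7% at 20 hr. The call of nhr-23 at 0 hr was lost when all 10 libraries of 0 and 20 hr were fitted together.

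Larvae build a new cuticle and shed the old one at the end of each larval stage, and adults no longer molt. The work is done mainly by the epidermis, where a large share of genes switch on and off once per larval stage. The regulators studied here are themselves part of this rhythm or set its pace. They act on collagens, on matrix proteins and on the proteases that release the old cuticle, and loss of any of them disturbs molting or its timing.

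All worms were N2, the standard wild-type strain, grown with HT115, an Escherichia coli strain used to feed double-stranded RNA. In the atp-2 RNAi groups the bacteria made double-stranded RNA against atp-2, the beta subunit of the ATP synthase, and in the control groups they carried an empty vector (L4440). The atp-2 RNAi groups held 2 libraries at 0 hr (replicates 2 and 3), 2 at 20 hr (replicates 2 and 3), and 1 each at 24, 36 and 54 hr. The control groups held 3 libraries at 0 hr, 3 at 20 hr, and 1 each at 24, 36 and 48 hr. RNA interference by feeding acts in many tissues, and each library was made from whole worms, so the values average over all cells. The study set out to find neuronal genes of stress-induced aversive learning, with atp-2 RNAi as the stress. The labels do not give the age or larval stage of the worms, the event from which hours were counted, or whether replicates came from separate cultures. The p-values therefore reflect no more than the spread of these samples, and that spread may be technical.

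Levels are TPM, each transcript's share of its library scaled for transcript length, and can be set side by side between genes. The depth of sequencing cannot be read from them and is unknown. The libraries had 10619 to 13565 genes above 1 TPM. The target atp-2 averaged 123 ± 18.5 TPM after atp-2 RNAi (SD, n = 2), against 1995 ± 157 TPM in controls (n = 3) at 0 hr. It averaged 184 ± 17.9 TPM after atp-2 RNAi (n = 2), against 1724 ± 290 TPM in controls (n = 3) at 20 hr. Its knockdown was shallower in the single libraries, with 1043 TPM after atp-2 RNAi against 2225 TPM at 24 hr, with 736 against 2578 TPM at 36 hr, and with 431 TPM (54 hr) against 2607 TPM (control, 48 hr).

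Tissue markers differed widely between the groups. Markers were called higher or lower by the test described below. Over all genes tested, it called 43.7% higher and 39.6% lower at 0 hr. At 20 hr it called 47.7% higher and 40.7% lower. All 10 germline markers and all 12 yolk and oocyte markers were lower in atp-2 RNAi worms at 0 hr and again at 20 hr. The yolk and oocyte markers summed to 4.84 to 5.34 TPM after atp-2 RNAi, against 10266 to 12664 TPM in controls at 0 hr, and the yolk gene vit-5 was listed at 0 in the atp-2 RNAi libraries of that time. At 20 hr they summed to 25.6 to 27.6 TPM after atp-2 RNAi, against 11919 to 29180 TPM in controls. These same markers were nearly absent in the controls of 24 hr (3.70 TPM) and 36 hr (7.49 TPM), and stood at 1997 TPM in the 48 hr control. Of 9 epidermal markers, 7 were higher after atp-2 RNAi at 0 hr and 9 at 20 hr, with sums of 906 to 1006 TPM against 321 to 424 TPM at 0 hr and of 511 to 689 TPM against 198 to 206 TPM at 20 hr. Most markers of neurons, muscle, pharynx and intestine were higher as well. At 0 hr 6 of 6 neuron, 4 of 5 body wall muscle, 4 of 5 pharynx and 4 of 6 intestine markers were higher, and at 20 hr 5 of 6, 5 of 5, 4 of 5 and 5 of 6 were. The exceptions that were called lower were 1 pharynx marker at each time and 1 intestine marker at 0 hr. Somatic gonad markers were divided, with 2 higher and 2 lower of 5 tested at 0 hr, and 1 higher and 1 lower at 20 hr. Their counts at 0 hr were near the shares over all genes. The part of these marker differences in the results below was not tested. The correlation (r) between libraries was 0.53 to 0.61 for atp-2 RNAi of 0 hr with the 0 hr controls. It was 0.92 to 0.93 with the controls of 24 and 36 hr, and 0.83 to 0.84 with that of 48 hr. For atp-2 RNAi of 20 hr, r was 0.56 to 0.57 with the 20 hr controls. It was 0.89 to 0.93 with the controls of 24 and 36 hr, and 0.82 to 0.86 with that of 48 hr. The labels give no stage, so the part of stage in the changes at 0 and 20 hr was not tested. In RNA of whole worms, fewer cells of a type and less RNA per cell cannot be told apart.

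All 7 regulators had at least 1.01 TPM in every library, so all 7 passed the filter on low values (a mean of at least 1 TPM). The lowest values of bed-3 (1.01 TPM), nhr-25 (1.01 TPM) and lin-42 (1.11 TPM), all in controls of 0 or 20 hr, were close to that mark. The highest value was 567 TPM, for lin-42. Over the 16 libraries lin-42 varied most, by 513-fold. The other ranges were 63.1-fold for grh-1, 59.8-fold for nhr-25, 54.8-fold for myrf-1, 51.7-fold for bed-3, 16.2-fold for nhr-23 and 13.4-fold for blmp-1. The atp-2 RNAi library of 24 hr held the highest value of 5 of them, and the 24 hr control held the highest value of nhr-25 and bed-3.

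**Figure D1:**
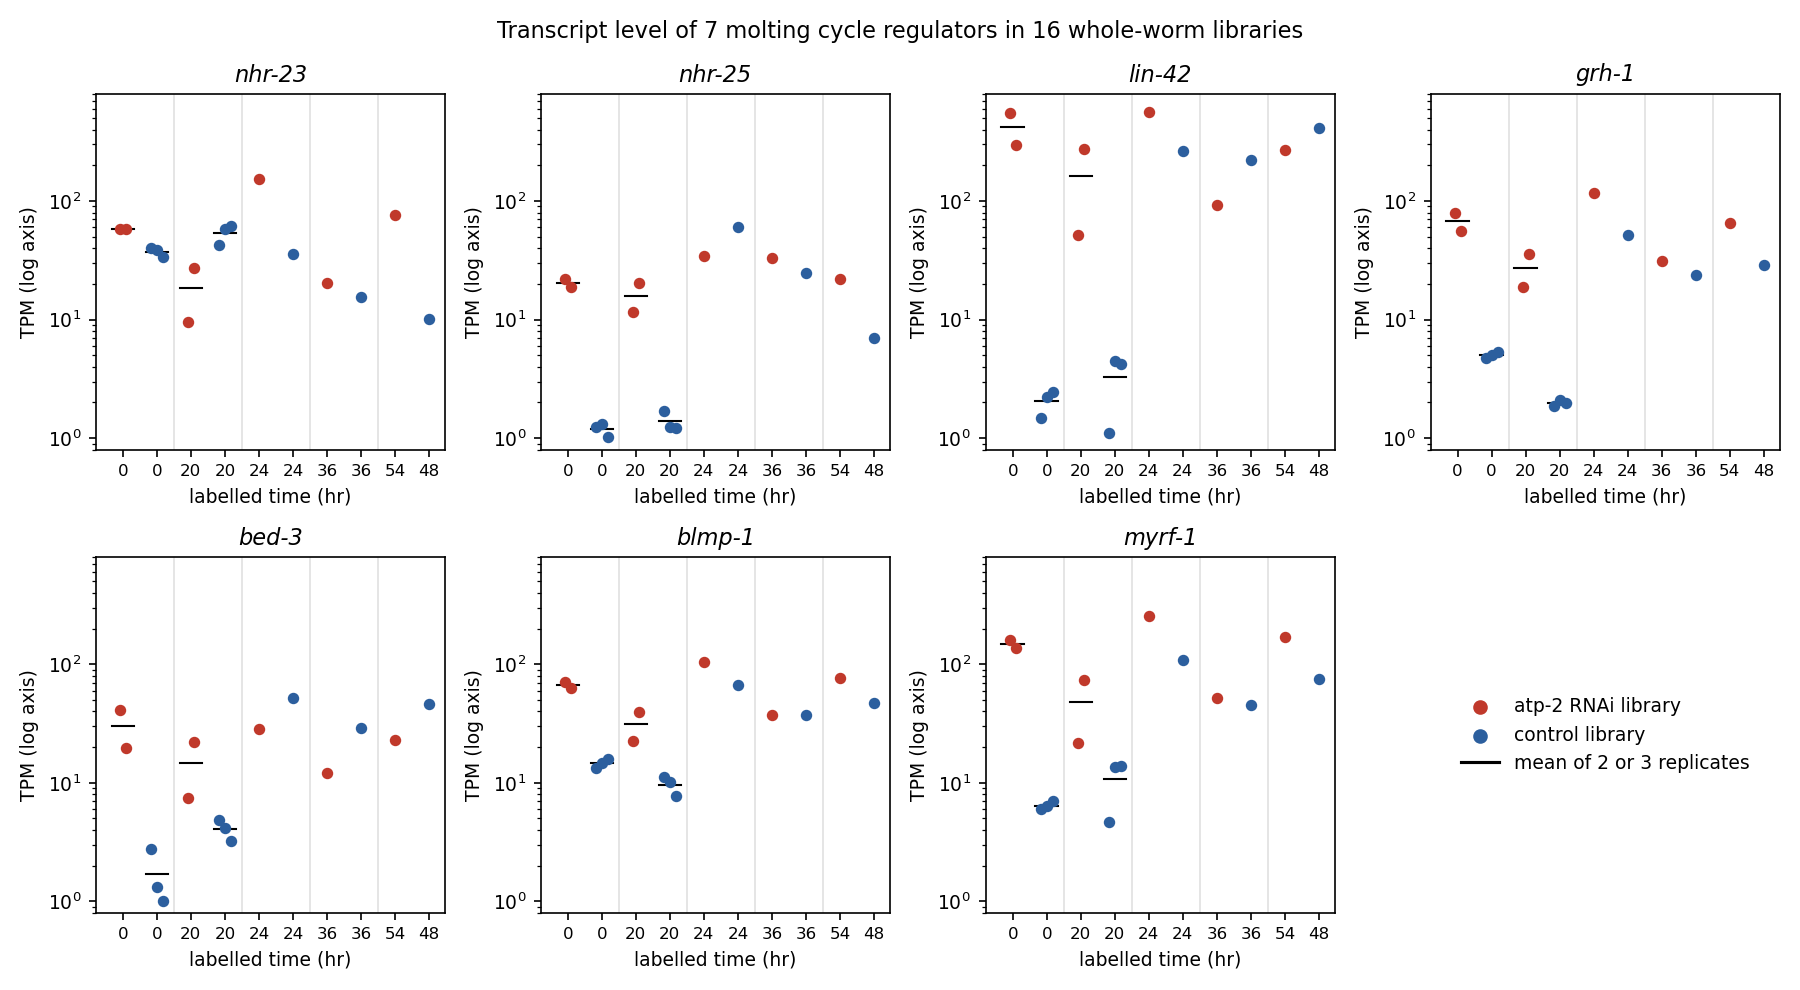
Level of each regulator in TPM (log axis) in every library, by labelled time in hours, with atp-2 RNAi libraries in red left of control libraries in blue and group means as bars. Apart from nhr-23, all regulators are low in the controls of 0 and 20 hr and high in the controls of 24, 36 and 48 hr, where nhr-25 ends at 6.99 TPM.

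At 0 hr the question was which of the regulators differed after atp-2 RNAi. All 7 were higher, with a median log2 change of 3.49. This is to be read against a background in which 43.7% of the 14094 genes tested were called higher and 39.6% lower, and in which the median change of all genes was 0.13. Changes come from limma on log2(TPM + 1), atp-2 RNAi over control, with p-values adjusted over all genes tested, and a gene was called at an adjusted p under 0.05. The scale understates the change of genes near 1 TPM.

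The gene lin-42 (WBGene00018572, II:1233236-1252359, minus strand, build WBcel235) encodes the worm counterpart of the clock protein PERIOD and sets the timing of molts. Its level at 0 hr was 553 and 298 TPM in atp-2 RNAi worms, against 1.48, 2.22 and 2.46 TPM in controls. Both atp-2 RNAi libraries lay far above every control, although they differed from each other 1.86-fold. The log2 change was 7.07 (SE 0.28, adjusted p = 7.86e-07), the largest of the 7 at this time.

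Next in size was myrf-1 (WBGene00004134, II:10496987-10502541, minus strand), a membrane-bound transcription factor that is cut free to enter the nucleus and is needed for larval molting and for the remodelling of motor neuron synapses. It stood at 159 and 138 TPM in atp-2 RNAi worms, against 5.96, 6.38 and 6.96 TPM in controls. Replicates lay close together and the groups did not overlap. The log2 change was 4.33 (SE 0.15, adjusted p = 4.69e-07).

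Changes of very similar size were seen for bed-3, grh-1 and nhr-25. The gene grh-1 (WBGene00001707, I:1259374-1268155, minus strand) encodes the Grainyhead factor, a conserved regulator of epidermal barriers that is needed for each molt. It had 79.0 and 56.2 TPM in atp-2 RNAi worms, against 4.72, 4.99 and 5.32 TPM in controls. The atp-2 RNAi libraries were more than 10 times as high as every control, and the log2 change was 3.49 (SE 0.19, adjusted p = 3.00e-06).

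The gene nhr-25 (WBGene00003623, X:13008493-13013962, plus strand) encodes a nuclear receptor of the Ftz-F1 family that acts in molting and in the epidermal seam cells. It had 22.2 and 18.8 TPM in atp-2 RNAi worms, against 1.24, 1.31 and 1.01 TPM in controls. The controls sat just above 1 TPM and did not overlap with atp-2 RNAi worms. The log2 change was 3.29 (SE 0.19, adjusted p = 3.70e-06), and the ratio of mean TPM, without the added 1, was 17.2.

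The gene bed-3 (WBGene00009133, IV:9916530-9921996, plus strand) encodes a BED zinc finger protein needed for molting and for vulval cell divisions. It had 40.8 and 19.8 TPM in atp-2 RNAi worms, against 2.75, 1.33 and 1.01 TPM in controls. Its replicates varied more than those of the other regulators, 2.06-fold between the atp-2 RNAi libraries and 2.74-fold among the controls, but the groups did not overlap. The log2 change was 3.50 (SE 0.37, adjusted p = 6.32e-05). The end of bed-3 shares 42 bases with dur-1 on the opposite strand, and dur-1 ran from 4.53 to 234.8 TPM over the 16 libraries, lowest in a control of 20 hr and highest in atp-2 RNAi worms of 24 hr. The strand setting of the counting is not given in the sources used here, and the part of dur-1 reads in the level of bed-3 was not tested.

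The gene blmp-1 (WBGene00003847, I:10409302-10414707, plus strand) encodes the BLIMP1 zinc finger factor, which opens chromatin at rhythmic genes. It had 70.8 and 63.2 TPM in atp-2 RNAi worms, against 13.3, 14.6 and 16.03 TPM in controls. The groups were well apart, and the log2 change was 2.12 (SE 0.15, adjusted p = 9.28e-06).

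The smallest change at 0 hr was that of nhr-23 (WBGene00003622, I:7214745-7221781, plus strand). It encodes a nuclear receptor related to the DHR3 and ROR receptors, drives collagen and molting genes in the epidermis, and is also needed in the germline for making sperm. It had 58.3 and 58.2 TPM in atp-2 RNAi worms, against 40.0, 38.3 and 34.0 TPM in controls. The groups did not overlap, and the log2 change was 0.63 (SE 0.13, adjusted p = 0.00270). This call was lost when all 10 libraries of 0 and 20 hr were fitted together (0.63, adjusted p = 0.0969). In the authors' deposited table nhr-23 at 0 hr had a log2 ratio of 0.64 with a q-value of 0.1997 and was not marked significant, while the other 6 regulators were.

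At 20 hr the comparison was repeated with other libraries. The regulators nhr-25, lin-42, grh-1, bed-3, blmp-1 and myrf-1 were higher after atp-2 RNAi and nhr-23 was lower. The median log2 change of the 7 was 1.94, against a median of 0.31 over the 12916 genes tested. In the background 47.7% of these genes were called higher and 40.7% lower. Levels of different times come from tables that were made separately.

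The reversal concerned nhr-23, which had 9.52 and 27.2 TPM in atp-2 RNAi worms, against 42.3, 58.2 and 61.7 TPM in controls. Both atp-2 RNAi libraries lay under every control, by a log2 change of -1.66 (SE 0.39, adjusted p = 0.00431). The change was -0.95 without atp-2 RNAi replicate 2 and -2.37 without atp-2 RNAi replicate 3. After quantile normalization it was -1.42 and no longer passed (adjusted p = 0.0567).

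The clock gene lin-42 had 52.1 and 273 TPM in atp-2 RNAi worms, against 1.11, 4.47 and 4.198 TPM in controls. The lower atp-2 RNAi library was still over 10 times the highest control. The log2 change was 4.95 (SE 0.69, adjusted p = 0.000249), with 6.13 without atp-2 RNAi replicate 2 and 3.76 without replicate 3.

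The changes of grh-1 and nhr-25 were the next in size. At this time grh-1 had 18.8 and 35.6 TPM in atp-2 RNAi worms, against 1.86, 2.08 and 1.96 TPM in controls, a log2 change of 3.18 (SE 0.27, adjusted p = 1.43e-05). The receptor gene nhr-25 had 11.5 and 20.2 TPM in atp-2 RNAi worms, against 1.70, 1.24 and 1.22 TPM in controls, a log2 change of 2.78 (SE 0.26, adjusted p = 2.32e-05). Neither gene's groups overlapped, and the controls of both were within 1.40-fold of each other.

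For blmp-1 the values were 22.6 and 40.0 TPM in atp-2 RNAi worms, against 11.1, 10.1 and 7.72 TPM in controls. The lower atp-2 RNAi library had about double the level of the highest control, and the log2 change was 1.56 (SE 0.27, adjusted p = 0.000799).

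The 2 remaining calls rested on wider replicates. The factor gene myrf-1 had 21.6 and 74.1 TPM in atp-2 RNAi worms, against 4.70, 13.6 and 13.9 TPM in controls. The groups did not overlap, but control replicate 1 lay far under the other controls and the atp-2 RNAi libraries differed 3.43-fold. The log2 change of 1.94 (SE 0.58, adjusted p = 0.0139) was not called without atp-2 RNAi replicate 3 (1.07, adjusted p = 0.142), without control replicate 1 (1.48, adjusted p = 0.0516) or with no filter (1.94, adjusted p = 0.0719).

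The zinc finger gene bed-3 had 7.48 and 22.2 TPM in atp-2 RNAi worms, against 4.85, 4.19 and 3.24 TPM in controls. The lower atp-2 RNAi library was near the controls, and the groups did not overlap. The log2 change was 1.47 (SE 0.40, adjusted p = 0.00870), 2.198 without atp-2 RNAi replicate 2 and 0.75 without replicate 3. It did not pass after quantile normalization (0.90, adjusted p = 0.170).

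**Figure D2:**
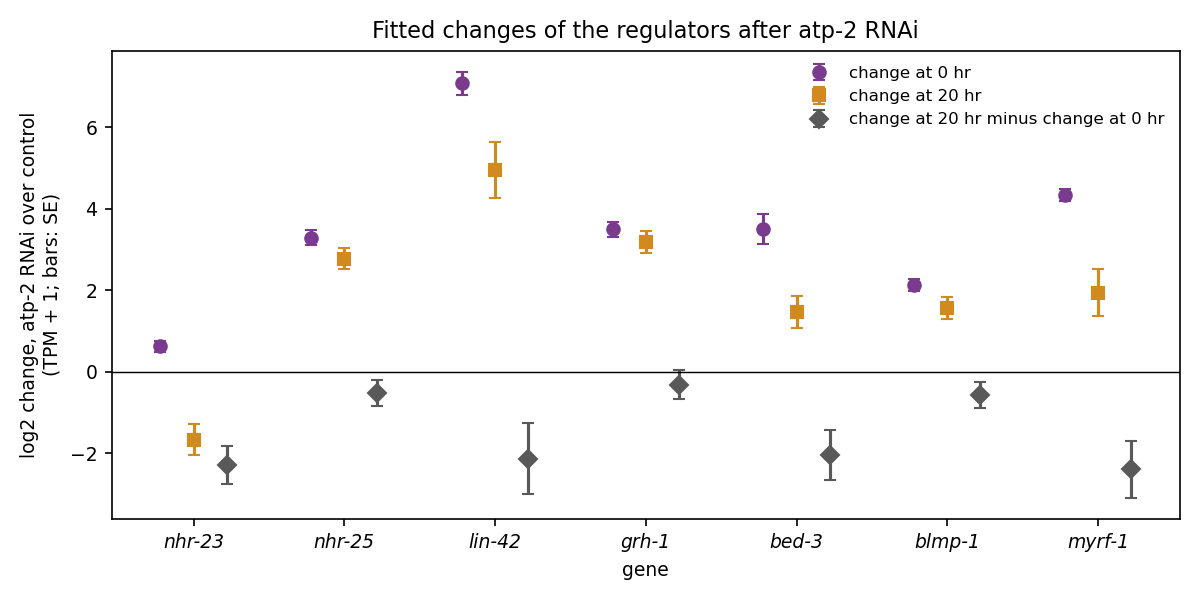
Log2 change of each regulator, atp-2 RNAi over control on the TPM + 1 scale, at 0 hr (circles) and 20 hr (squares), and the change at 20 hr minus the change at 0 hr (diamonds), with standard errors from limma. Among the changes at either time, only that of nhr-23 at 20 hr lies under 0.

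The 2 atp-2 RNAi libraries of 20 hr differed in the same direction for every regulator. Replicate 3 was higher than replicate 2 for all 7, from 1.75-fold for nhr-25 to 5.25-fold for lin-42, and 70.2% of all genes tested were higher in replicate 3 on the TPM + 1 scale. For lin-42 only 0.201% of genes differed as far or farther in that direction, and for myrf-1 it was 1.05%. For nhr-25, the least divergent, it was 8.99%. At 0 hr the atp-2 RNAi libraries were closer, with replicate 2 higher for all 7, from 1.001-fold for nhr-23 to 2.06-fold for bed-3. The values of nhr-23 were almost equal there (58.3 and 58.2 TPM), and 45.7% of all genes tested were higher in replicate 3. Nothing in the labels separates these replicates.

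The signed change at 20 hr minus that at 0 hr was under 0 for all 7. On the TPM + 1 scale the change of 6 of them was in the same direction and smaller at 20 hr. That of nhr-23 was reversed and larger in size. For grh-1 the ratio of mean TPM, without the added 1, was no smaller at 20 hr (13.8) than at 0 hr (13.5). The difference was tested in a fit of all 10 libraries, in which 43% of 13679 genes were called. It passed for 3 of the 7 regulators, a count near that share. These were nhr-23, with a difference of -2.29 (SE 0.46, adjusted p = 0.00465), myrf-1, with -2.39 (SE 0.69, adjusted p = 0.0204), and bed-3, with -2.03 (SE 0.62, adjusted p = 0.0247). The difference of lin-42 was as large, -2.13 (SE 0.87, adjusted p = 0.0704), but its error was larger and it did not pass. It was -0.94 without atp-2 RNAi replicate 2 of 20 hr (adjusted p = 0.278) and -3.31 without replicate 3 of that group, where it passed (adjusted p = 0.00471). It also passed without control replicate 1 of 20 hr (-2.57, adjusted p = 0.0381). The remaining differences were -0.52 for nhr-25 (SE 0.32, adjusted p = 0.211), -0.56 for blmp-1 (SE 0.32, adjusted p = 0.178) and -0.31 for grh-1 (SE 0.35, adjusted p = 0.481).

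Only the difference of nhr-23 passed under all 18 alternatives tried, with values of -2.997 to -1.58. Without atp-2 RNAi replicate 2 of 0 hr, those of bed-3 (-1.52, adjusted p = 0.103) and myrf-1 (-2.29, adjusted p = 0.0632) did not pass. Without atp-2 RNAi replicate 2 of 20 hr they were -1.31 for bed-3 (adjusted p = 0.0911) and -1.52 for myrf-1 (adjusted p = 0.0687) and did not pass. With no filter the differences kept their size (-2.03 for bed-3 and -2.39 for myrf-1) but did not pass (adjusted p = 0.0749 and 0.0673). That of bed-3 also did not pass without control replicate 2 of 0 hr (-1.95, adjusted p = 0.0532) or control replicate 3 of 0 hr (-1.84, adjusted p = 0.0549). Over all genes, 49.1% of the differences called were positive, and 36.5% were when libraries were first shifted to the same median. With that shift 5 of the regulators passed, all with a difference under 0.

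The order of the regulators within a library also separated the controls of 0 and 20 hr from the rest. In these 6 controls nhr-23 was the most abundant of the 7, with 8.72 to 33.7 times the level of bed-3. In the other 10 libraries lin-42 was the most abundant. There nhr-23 reached 1.23 to 5.40 times the level of bed-3 in atp-2 RNAi worms, against 0.220 to 0.684 times in the controls of 24, 36 and 48 hr. These ratios are within a library and do not depend on the total to which TPM are scaled.

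The single libraries of later times allow no test, and their pairs are described by the log2 ratio of TPM + 1, with at least 2-fold as the mark. At 24 hr nhr-23 had 154 TPM in the atp-2 RNAi library, against 35.6 TPM in the control, a log2 ratio of 2.08. With it, lin-42 (567 against 265 TPM), myrf-1 (258 against 110 TPM) and grh-1 (118 against 51.3 TPM) were past 2-fold higher. So 4 of 7 were at least 2-fold higher and 0 lower, where 6.41% of 12548 genes were at least 2-fold higher and 4.10% lower. The ratio of lin-42 was 1.10, and 0.996 after a shift to the same median, just under the mark. Levels of blmp-1 were 104 against 66.4 TPM. Both nhr-25 (34.2 against 60.7 TPM) and bed-3 (28.6 against 52.1 TPM) were lower in the atp-2 RNAi library by less than 2-fold.

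At 36 hr fewer of the regulators were past 2-fold. The regulators nhr-23 (20.2 against 15.6 TPM), nhr-25 (33.4 against 24.7 TPM), grh-1 (31.3 against 23.8 TPM), blmp-1 (37.2 against 37.3 TPM) and myrf-1 (51.8 against 45.3 TPM) all lay within 2-fold of the control. The 2 others were lower, with lin-42 at 92.6 TPM in the atp-2 RNAi library against 222 TPM in the control, and bed-3 at 12.01 against 28.9 TPM. At this time 7.57% of 12416 genes were at least 2-fold higher and 5.56% at least 2-fold lower. All 7 were lower in the atp-2 RNAi library of 36 hr than in that of 24 hr.

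The last pair joins unequal times, atp-2 RNAi of 54 hr and control of 48 hr. The level of nhr-23 was 75.6 TPM in the atp-2 RNAi library, against 10.2 TPM in the control, a log2 ratio of 2.78 and the largest of any regulator in the single pairs. Also past 2-fold higher were nhr-25 (22.01 against 6.99 TPM), grh-1 (64.9 against 28.6 TPM) and myrf-1 (171 against 74.6 TPM). Lower were lin-42 (267 against 416 TPM) and bed-3 (22.9 against 46.3 TPM), and blmp-1 stood at 76.0 against 47.3 TPM. In this pair 17.8% of 13473 genes were at least 2-fold higher and 14.9% lower. The log2 ratio of bed-3 was -0.99, just short of the mark, and its TPM ratio without the added 1 was 0.494. With a pseudocount of 0.1 or 0.01 it was past 2-fold lower. After a shift to the same median grh-1 (0.94) and myrf-1 (0.97) came under the mark and bed-3 (-1.20) passed it.

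Over the 3 pairs, nhr-23, grh-1 and myrf-1 were higher in the atp-2 RNAi library each time and bed-3 was lower each time. Log2 ratios ran from -1.25 (lin-42 at 36 hr) to 2.78 (nhr-23 in the last pair). Control levels of lin-42 lay between 1.11 and 4.47 TPM over the 6 libraries of 0 and 20 hr, and between 222 and 416 TPM over the 3 later ones, in which the yolk and oocyte markers were at 3.70 to 1997 TPM. These times come from separate tables, and the labels give no stage.

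**Figure D3:**
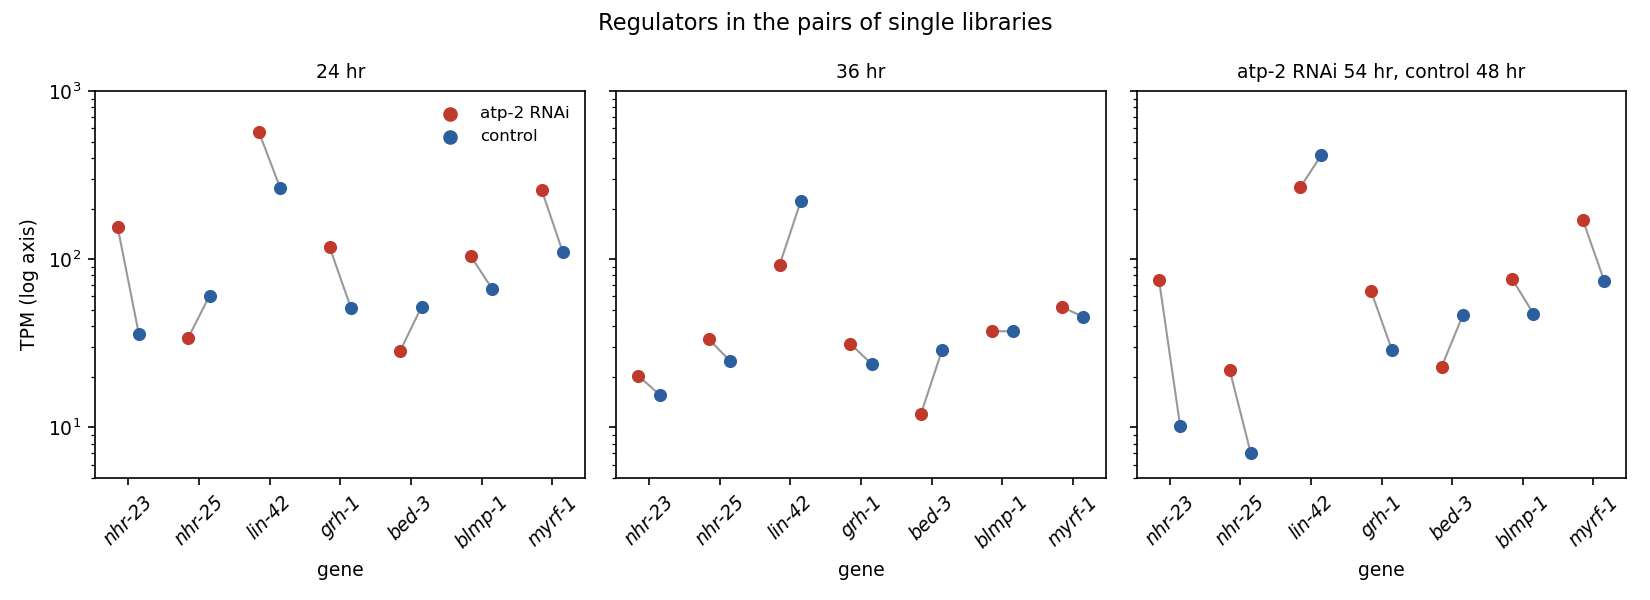
Level of each regulator in TPM (log axis) in the 3 pairs of single libraries, with atp-2 RNAi in red left of its control in blue. The grey lines join the members of a pair and slope down where the atp-2 RNAi library is higher, as for nhr-23 in all 3 pairs, and up where it is lower, as for bed-3 in all 3.

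The levels of the 7 genes can be ordered over the 10 groups. For nhr-23 the order began with atp-2 RNAi of 24 hr (154 TPM), 54 hr (75.6 TPM) and 0 hr (mean 58.2 ± 0.0541 TPM, SD, n = 2), and ended with the controls of 36 hr (15.6 TPM) and 48 hr (10.2 TPM). The 0 hr atp-2 RNAi group and its neighbour in that order, the 20 hr control (54.1 ± 10.4 TPM, n = 3), overlapped. For each of the other 6 the last places were taken by the controls of 0 and 20 hr. The ranges of these control groups overlapped for nhr-25, lin-42 and myrf-1. They lay apart for grh-1 and blmp-1, which were lower in the 20 hr control, and for bed-3, which was higher there.

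As a description of likeness, Pearson's r on log2(TPM + 1) was taken between the regulators over the 16 libraries, which share groups and tables. The 15 pairs that leave out nhr-23 had r of 0.84 to 0.98. The 6 pairs with nhr-23 had r of -0.06 to 0.22. Within the 7 atp-2 RNAi libraries nhr-23 went with the others (r of 0.58 to 0.99), and over the 9 controls r was negative (-0.76 to -0.50). In the atp-2 RNAi libraries the 15 other pairs had r of 0.45 to 0.99, lowest for nhr-25 with bed-3. Their r was 0.85 to 0.99 over the 9 controls. These 9 join the 6 controls of 0 and 20 hr, with nhr-23 at 34.0 to 61.7 TPM, to the single controls of 24, 36 and 48 hr. In the latter nhr-23 was 10.2 to 35.6 TPM. No r was taken within either set. With grh-1, for example, r was 0.98 in atp-2 RNAi worms and -0.73 in controls.

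**Figure D4:**
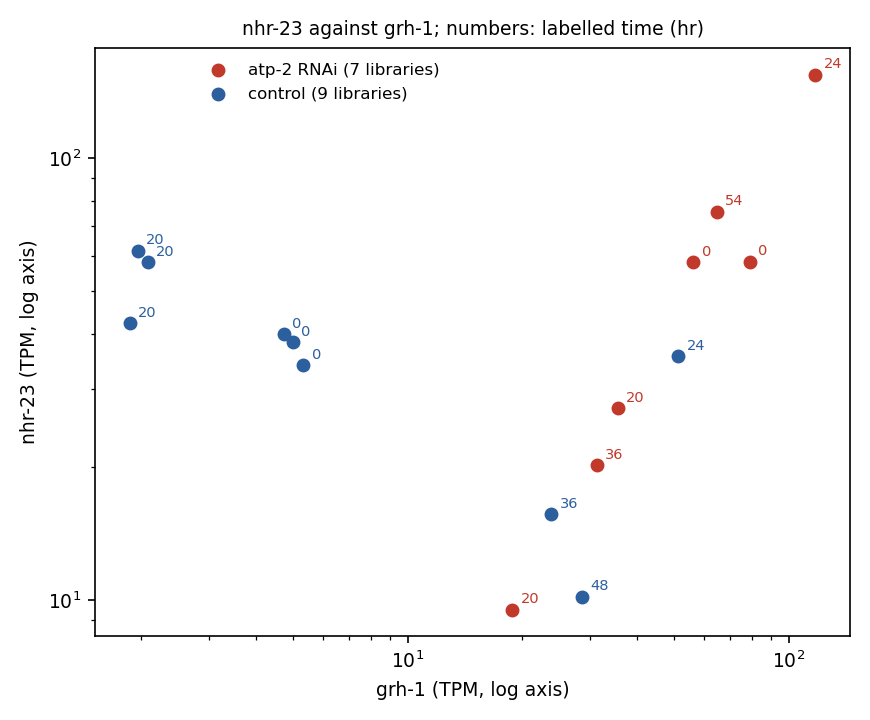
Level of nhr-23 against that of grh-1, both in TPM on log axes, 1 point per library with its labelled time in hours, atp-2 RNAi in red and control in blue. The red points and the controls of 24, 36 and 48 hr form a rising band, and the 6 controls of 0 and 20 hr lie apart at low grh-1 (1.86 to 5.32 TPM) and 34.0 to 61.7 TPM of nhr-23.

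Sperm markers were read beside nhr-23 because of its role there. At 0 hr 6 of the 9 markers could be tested and all 6 were lower. The 9 summed to 2.59 to 2.71 TPM in atp-2 RNAi worms, against 175 to 421 TPM in controls. At 20 hr they summed to 4.86 to 15.6 TPM in atp-2 RNAi worms, against 1.14 to 2.38 TPM in controls, where nhr-23 was 42.3 to 61.7 TPM. In the 48 hr control, which had the lowest nhr-23 of the controls, they summed to 155 TPM. The germline markers, whose sums were 66.3 to 80.2 TPM in atp-2 RNAi worms against 1564 to 1788 TPM in controls at 0 hr, and 110 to 208 TPM against 1891 to 2738 TPM at 20 hr, were high in the same 6 controls in which nhr-23 was the most abundant regulator. Their part in the level of nhr-23 was not tested.

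The genes most like each regulator were taken from 13750 genes by the highest r over the 16 libraries. For nhr-23 they were the nuclear receptor gene nhr-49 (r = 0.89), the CREB family gene crh-2 (0.89) and nstp-4 (0.88), genes that ranged only from 72.8 to 150 TPM, 64.8 to 135 TPM and 54.4 to 107 TPM. The regulator lin-42 was most like ZC123.1, K08E7.5 and the molting gene mlt-8, all at 0.99. For grh-1 they were hhat-2, the lipoprotein receptor gene lrp-1, which is needed for molting, and dre-1, an F-box gene that acts on BLMP-1, all at 0.99. The 3 for blmp-1 were sym-1, R57.2 and the matrix gene noah-1, at 0.99. Those for nhr-25 were epg-2, inx-20 and R02D5.1 (0.98), those for myrf-1 jac-1, C09F9.2 and Y73E7A.8 (0.98), and those for bed-3 ZK512.1, acs-20 (0.98) and F01G10.10 (0.97).

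Most partners of the regulators and genes of developmental timing were higher at both times. Of 14 such genes, 11 were higher and 2 lower at 0 hr, with a median log2 change of 2.30. At 20 hr 11 were higher and 3 lower, with a median of 1.66. Over all genes tested, 43.7% were called higher and 39.6% lower at 0 hr, and 47.7% and 40.7% at 20 hr. The MYRF partner pan-1 averaged 141 ± 4.96 TPM in atp-2 RNAi worms against 15.2 ± 0.0994 TPM in controls at 0 hr, a log2 change of 3.13 (SE 0.12, adjusted p = 8.50e-07). Here and in the lists that follow, ± is the SD of 2 atp-2 RNAi libraries and of 3 controls. The timing gene lin-46 averaged 27.4 ± 5.15 TPM against 1.68 ± 0.657 TPM at 0 hr (log2 change 3.42) and 19.0 ± 1.53 TPM against 0.479 ± 0.168 TPM at 20 hr (3.76). The zinc finger gene lin-29, which acts at the passage from larva to adult, had a log2 change of 2.31 at 0 hr and 3.31 at 20 hr. Lower were tim-1, the TIMELESS counterpart (log2 change -1.67 at 0 hr and -2.69 at 20 hr), and lin-28, an RNA-binding regulator of larval stage (-1.14 and -1.98). The stage regulator lin-41 averaged 47.7 ± 6.78 TPM in atp-2 RNAi worms against 42.8 ± 7.19 TPM in controls at 0 hr, which did not pass (adjusted p = 0.417). At 20 hr it was lower, at 18.1 ± 4.89 TPM against 114 ± 52.1 TPM (log2 change -2.47, adjusted p = 0.000810). Both lin-28 and lin-41 are also expressed in the germline.

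Other transcription factors of the epidermis changed in both directions. Of 9, 6 were higher and 2 lower at 0 hr (median 0.91), and of 8 tested at 20 hr, 4 were higher and 3 lower (median 0.43). Over all genes tested the shares were 43.7% higher and 39.6% lower at 0 hr, and 47.7% higher and 40.7% lower at 20 hr, so the counts at 20 hr are near the background. The GATA factor gene elt-3, a factor of the main epidermis, was higher at both times, with log2 changes of 0.91 and 2.81. The seam cell factors bro-1 (3.61 at 0 hr and 1.92 at 20 hr) and rnt-1 (1.85 and 1.43) were higher as well, and averaged 0.590 TPM or less in controls. The GATA factor gene egl-18 was lower, with log2 changes of -0.96 and -2.75, and so was lin-26, a factor of epidermal fate (-0.85 and -2.29). At 0 hr the call of egl-18 was lost without atp-2 RNAi replicate 2 (-0.94, adjusted p = 0.0512).

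The enzymes, trafficking proteins and matrix proteins of molting made up the longest list. Of 35 genes, 29 were higher and 2 lower at 0 hr (median 2.45), and 29 were higher and 3 lower at 20 hr (median 2.44). The shares over all genes tested were 43.7% higher and 39.6% lower at 0 hr, and 47.7% and 40.7% at 20 hr. The lipocalin gene lpr-3, a matrix component, averaged 377 ± 99.5 TPM in atp-2 RNAi worms against 0.527 ± 0.281 TPM in controls at 0 hr (log2 change 7.94, adjusted p = 2.70e-07). At 20 hr it averaged 89.0 ± 86.4 TPM against 0.467 ± 0.151 TPM (log2 change 5.50, adjusted p = 5.79e-05). The protease inhibitor gene mlt-11 had log2 changes of 7.70 and 5.26, and mlt-8 of 6.62 and 5.32. The endocytosis genes hgrs-1 (-0.64 and -1.65) and dab-1 (-0.51 and -1.35) were lower, and at 20 hr so was the proprotein convertase gene bli-4 (-0.82). The call of dab-1 at 0 hr was lost without atp-2 RNAi replicate 3 (-0.45, adjusted p = 0.0701).

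All 9 furrow and early collagens were higher at both times, where 43.7% of all genes were at 0 hr and 47.7% at 20 hr. Their medians were 7.35 at 0 hr and 5.50 at 20 hr. They summed to 5484 to 9792 TPM in atp-2 RNAi worms, against 14.9 to 51.4 TPM in controls at 0 hr, and to 2046 to 6254 TPM against 9.17 to 10.4 TPM at 20 hr. The collagen sqt-3 averaged 2083 ± 993 TPM in atp-2 RNAi worms against 7.02 ± 2.996 TPM in controls at 0 hr, a log2 change of 8.02 (SE 0.39, adjusted p = 2.06e-06). At 20 hr the largest changes were those of dpy-5 (log2 change 10.25) and dpy-13 (10.07), which averaged 1499 ± 948 TPM and 1394 ± 970 TPM in atp-2 RNAi worms, against 0.107 ± 0.0927 TPM and 0.128 ± 0.0641 TPM in controls.

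Genes of sterol supply and steroid hormone synthesis were examined because molting needs cholesterol. Of 9 genes 7 passed the filter, of which 5 were higher and 1 lower at 0 hr (median 1.53), and 5 were higher and 0 lower at 20 hr (median 1.72). Beside them, 43.7% of all genes tested were called higher and 39.6% lower at 0 hr, and 47.7% and 40.7% at 20 hr. The cytochrome P450 gene daf-9, which makes dafachronic acids, averaged 10.2 ± 0.438 TPM in atp-2 RNAi worms against 1.77 ± 0.0764 TPM in controls at 0 hr, and 13.7 ± 1.30 TPM against 0.527 ± 0.162 TPM at 20 hr, with log2 changes of 2.02 and 3.27. The nuclear cofactor gene din-1 (3.48 and 2.84) and the dehydrogenase gene dhs-16 (3.46 and 2.32) were higher at both times. The oxygenase gene daf-36 was lower at 0 hr (-1.26, adjusted p = 0.00289), and had a log2 change of -0.52 at 20 hr (adjusted p = 0.0607).

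**Figure D5:**
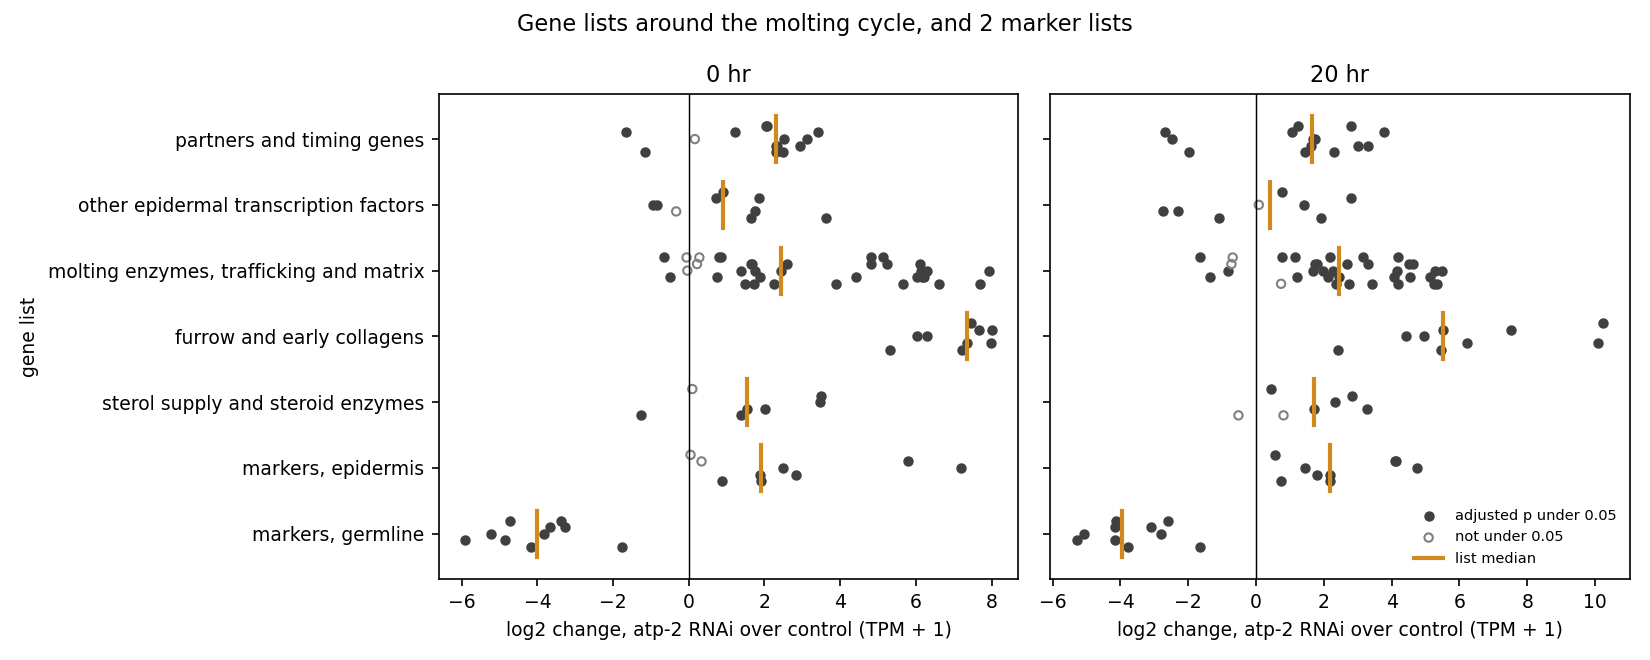
Log2 change, atp-2 RNAi over control on the TPM + 1 scale, of each tested gene of 5 lists around molting and of 2 marker lists, at 0 hr (left) and 20 hr (right), with filled points for an adjusted p under 0.05 and bars for list medians. All 9 collagens lie right of 0 at both times and all 10 germline markers lie left of it.

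In the single pairs the lists gave counts past 2-fold, with no test. Over all genes measured, 6.41% were at least 2-fold higher and 4.1% lower at 24 hr, and 7.57% and 5.56% at 36 hr. In the last pair the shares were 17.8% higher and 14.9% lower. The 9 other epidermal transcription factors had 2 members at least 2-fold higher at 24 hr, 4 at 36 hr and 8 in the last pair, with 0 lower each time and median log2 ratios of 0.54, 0.99 and 1.75. The 14 partners and timing genes had 3 higher and 2 lower at 24 hr, 5 higher and 1 lower at 36 hr, and 7 higher and 0 lower in the last pair. Of the 7 sterol genes measured, 2 were higher at 24 hr, 0 at 36 hr and 2 in the last pair, with 0 lower each time. The 9 collagens had 6 members at least 2-fold higher and 2 lower at 24 hr, 0 higher and 4 lower at 36 hr, and 6 higher and 2 lower at 54 against 48 hr. Of the 35 molting genes, 10 were at least 2-fold higher and 5 lower at 24 hr, 0 higher and 9 lower at 36 hr, and 8 higher and 5 lower in the last pair. In these pairs lpr-3 had 896 TPM in the atp-2 RNAi library against 193 TPM in the control at 24 hr, 49.4 against 85.4 TPM at 36 hr, and 353 against 120 TPM in the last pair. Like every regulator except nhr-25, it was highest at 24 hr and lowest at 36 hr among the 3 single atp-2 RNAi libraries. Of the 14 partners and timing genes, lin-41 was 92.2 TPM in the atp-2 RNAi library against 17.9 TPM in the control at 36 hr, and 68.0 against 8.23 TPM in the last pair.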

How the data were processed

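Whole N2 worms gave 16 libraries of RNA. Per the labels' protocols, the extraction kit was GENEzol and the library kit SureSelect, strand-specific. The submitters' processing notes name bcl2fastq 2.20, TopHat, Cufflinks and build WBcel235. Which program gave the TPM, with which annotation release and strand setting, is not given in the sources used here. TPM per library were deposited by the authors, with 0.0001 for no signal, here taken as 0. Log2 ratios of mean TPM with a p-value and q-value from a test that is not named were also deposited by the authors and used only for the calls credited to them.

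The members and gene lists were chosen with earlier results of these data known. The test at 0 hr and at 20 hr was that of limma 3.58.1 (R 4.3.3) with its intensity trend, two-sided, 2 atp-2 RNAi libraries against 3 controls. It used log2(TPM + 1) and genes whose mean reached 1 TPM. P-values were adjusted by Benjamini-Hochberg over all genes tested, at 0.05. The difference between the changes was an interaction in a fit of 10 libraries. The fits were tested on simulated data. Replicates were not treated as paired. Named were the 7 members, atp-2, genes from the 2 largest changes called per list, direction and time, and the 3 genes most like each member. Named outside this rule, after their values were seen, were bli-4, and dur-1 for its overlap. Also tried were pseudocounts of 0.1 and 0.01, a filter at 5 TPM or none, a median shift, quantile normalization, a replicate block, no trend, 1 fit of all 10 libraries and leaving out each library. Python 3.11.15 and matplotlib 3.10.9 drew the figures. No sequence is shown, since no sequence table was used here.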

Additional observations from a re-analysis of the deposited data

Results flagged for a closer look

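By the interaction in limma, 43% of 13679 genes had a change that differed between 20 hr and 0 hr at an adjusted p under 0.05. Among the 7 regulators the count was 3, near that share. They were nhr-23 (-2.29 on the log2 scale), bed-3 (-2.03) and myrf-1 (-2.39). For nhr-23 the direction differed too, higher at 0 hr and lower at 20 hr in atp-2 RNAi worms, with no overlap between atp-2 RNAi and control libraries at either time. In the limma fit of all 10 libraries its change at 0 hr was not called (0.63, adjusted p = 0.0969). After quantile normalization its change at 20 hr was not called (-1.42, adjusted p = 0.0567). For bed-3 and myrf-1 the change was in the same direction and smaller at 20 hr. In atp-2 RNAi worms myrf-1 averaged 47.9 TPM at 20 hr and 149 TPM at 0 hr, and bed-3 averaged 14.8 TPM at 20 hr and 30.3 TPM at 0 hr. In controls myrf-1 averaged 10.7 TPM at 20 hr and 6.43 TPM at 0 hr, and bed-3 averaged 4.09 TPM at 20 hr and 1.70 TPM at 0 hr. All 3 were lower in replicate 2 than in replicate 3 of atp-2 RNAi at 20 hr. No group held enough libraries for a search for single libraries far from their group.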

How the results depend on the processing

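All 7 regulators were called at 0 hr under every alternative except all 10 libraries in 1 fit, where 6 were, and between 5 and 7 were called at 20 hr. In the main fits 43.7% of all genes tested were called higher and 39.6% lower at 0 hr, and 47.7% and 40.7% at 20 hr. Every log2 change of the regulators at 0 hr and at 20 hr kept its direction. The number of regulators whose change differed between the times, 3 in the report, was least stable. It was 1 with no filter, 5 after a shift to the same median and 7 after quantile normalization, and the cause was not tested. Leaving out each library gave 1 (without atp-2 RNAi replicate 2 of 0 hr or of 20 hr) to 6 (without atp-2 RNAi replicate 3 of 20 hr). Over all genes the differences called were 5877, with 3600 (without atp-2 RNAi replicate 2 of 0 hr) to 6546 when a library was left out. The difference of grh-1 turned to 0.13 without atp-2 RNAi replicate 2 of 20 hr (adjusted p = 0.724) and ran from -0.75 to 0.13 when a library was left out, and its adjusted p ran from 0.0396 to 0.970 over all alternatives. With the replicate number as a replicate block, 11542 genes were called at 0 hr (11741 without the block), 11266 at 20 hr (11411) and 5300 for the difference (5877), and 7, 7 and 4 regulators. The difference of lin-42 was then called (-2.43, adjusted p = 0.0395). Deviations of same-numbered libraries did not go together (r of at most 0.0716 in size), so the numbers were not taken to pair samples. Of 1806 values for single genes and lists under the alternatives, 1764 counted as the same. For a fitted change, the same meant an unchanged direction and side of the threshold. For a list count it meant a count within 1.5-fold. For a ratio in a single pair it meant a move smaller than the residual SD of that gene among replicates, so such a ratio could cross the 2-fold mark. Depth is unknown, so no limit set by it could be given. With 2 atp-2 RNAi libraries a group, each value at 20 hr leans on either library.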
